A study of Isostichopus badionotus with 6 samples.

Results

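Locus_571 and Locus_1586 are a pair of assembled loci of the sea cucumber Isostichopus badionotus that hold a transcript matched to an immune gene. Transcript 28 of Locus_571 (615 nt) has as its nearest database match the techylectin-5A-like mRNA of the starfish Acanthaster planci, and transcript 7 of Locus_1586 (3190 nt) matches the mRNA of suppressor of cytokine signaling 2 (SOCS2) of the sea cucumber Apostichopus japonicus. Every counted transcript whose identifier begins with one of these locus names was taken, which gave 11 of the 129776 transcripts in the table. Locus_571 had 8 counted transcripts, while its identifiers number them up to 42, and Locus_1586 had 3, numbered up to 8. Here a locus is a group of sequences that the assembler joined, so its members can be splice forms, allelic copies, near-identical genes or fragments of one mRNA. The remaining members of both loci carry no name in the annotation used here. That annotation holds only transcripts that the study found differentially expressed and matched to a nucleotide database. A missing name therefore does not mean that a member has no match. No genome coordinates were used.

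Body wall RNA of 6 captive animals was counted. By the labels, animals 5 and 6 were adults whose environment is given as "Captivity adapted", and animals 1 to 4 were juveniles kept in captivity. All 6 were eviscerated so that only the body wall was left, and pieces from across an animal were pooled into its sample. The design text of the series calls all of them farmed juveniles, and the stage on each sample's label was followed. The study describes its farmed animals as first-generation offspring of brood-stock held in tanks and fed on algae, and it also counts as farmed some animals held in culture after being captured, without the labels saying which samples these were. No source used here gives the age of the adults. Stage and adaptation to captivity go together in the labels and cannot be told apart, and the only group with more than 2 animals is the juveniles. Counts per animal summed to 23771295 and 26189571 in the adults and to between 21714696 and 31742950 in the juveniles. Levels are given as CPM (counts scaled to a common library size) on totals scaled by TMM, a factor that sets the bulk of transcripts level between libraries. Adult 6 stood apart in this factor, at 0.586, against 0.973 in adult 5 and 1.04 to 1.32 in the juveniles, and loci matched to mitochondrial sequence or rRNA took 30.6% of its counts, against 14.8% to 22.4% in the other animals. Markers of body wall tissues were counted in every library. The 6 muscle markers summed to 2276 and 2022 CPM in adults 5 and 6, and to 1495, 135, 402 and 2096 CPM in juveniles 1 to 4, so that juvenile 2 was the lowest library. The 6 cilia markers summed to 19.1 to 54.8 CPM and the 5 neural markers to 60.0 to 145 CPM, and none of these 17 markers was at 0 in any animal.

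Techylectin-5A is a lectin of the horseshoe crab Tachypleus that binds acetylated sugars on microbes and clumps bacteria, and it carries a fibrinogen-like domain. Echinoderms have many genes with this domain, among them ficolin-like lectins and tenascins of the extracellular matrix, and a nearest-match name does not say which of these roles a protein has. SOCS2 belongs to a family of adaptor proteins with an SH2 domain and a SOCS box. In vertebrates these are switched on by JAK-STAT signalling and feed back on it, and SOCS2 is best known in mice for holding back the growth hormone receptor.

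Transcript 28 of Locus_571 had 229 and 40 counts in adults 5 and 6, against 596, 44, 343 and 363 counts in juveniles 1 to 4. On the TMM scale this was 9.90 and 2.61 CPM in the adults, against 16.7, 1.94, 10.1 and 9.68 CPM in the juveniles, whose mean was 9.61 ± 6.05 CPM (SD, n = 4). Both adults lay within the range of the juveniles. Juvenile 2 was the lowest animal and juvenile 1 the highest, 8.61-fold apart. Transcripts passing the 3 CPM filter, which transcript 28 missed, spanned a median of 2.19-fold over the juveniles, with a ninetieth percentile of 7.21-fold. By counting error alone, the order of the middle animals cannot be read: the exact Poisson 95% intervals were 8.66 to 11.3 CPM in adult 5, 9.07 to 11.2 CPM in juvenile 3 and 8.71 to 10.7 CPM in juvenile 4. Those of adult 6 (1.86 to 3.55 CPM) and juvenile 2 (1.41 to 2.61 CPM) also overlapped. These intervals, and the Wilson intervals given for shares, cover counting error only and leave out variation between animals. Reads made by PCR are not independent molecules, so the intervals may be too narrow even for counting error. In bulk tissue, fewer cells that use a gene and less RNA per cell cannot be told apart.

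The other transcripts of Locus_571 fell into kinds that moved differently between animals. Transcript 10 (374 nt) was the most abundant, with 10.9 and 2.28 CPM in adults 5 and 6, against 25.3, 2.03, 15.8 and 19.9 CPM in juveniles 1 to 4. Transcript 2 (204 nt) had 6.10 and 0.456 CPM in the adults, against 8.81, 0.441, 6.90 and 6.99 CPM in the juveniles. Like transcript 28, both were highest in juvenile 1 and low in juvenile 2 and adult 6. Transcript 30 (543 nt) had another pattern, with 1.34 and 0.261 CPM in the adults, against 2.08, 1.54, 8.90 and 28.1 CPM in juveniles 1 to 4. Transcript 15 (406 nt) went with it, with 0.995 CPM in adult 5 and no count in adult 6, against 1.88, 0.176, 6.19 and 24.3 CPM in the juveniles. Both were highest in juvenile 4, where each stood above transcript 28. Transcript 5 (327 nt) was also highest in juvenile 4, with 7.01 CPM there, 1.19 to 3.03 CPM in the other juveniles, and 1.43 and 0.195 CPM in the adults. The remaining members were close to absent. Transcript 37 (318 nt) had 2 and 0 counts in the adults, against 14, 5, 0 and 0 in the juveniles, and transcript 40 (546 nt) had 2 counts in juvenile 4 and none elsewhere, where a count of 0 allows up to 3 counts, or 0.0842 to 0.195 CPM depending on the library.

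**Figure D1:**
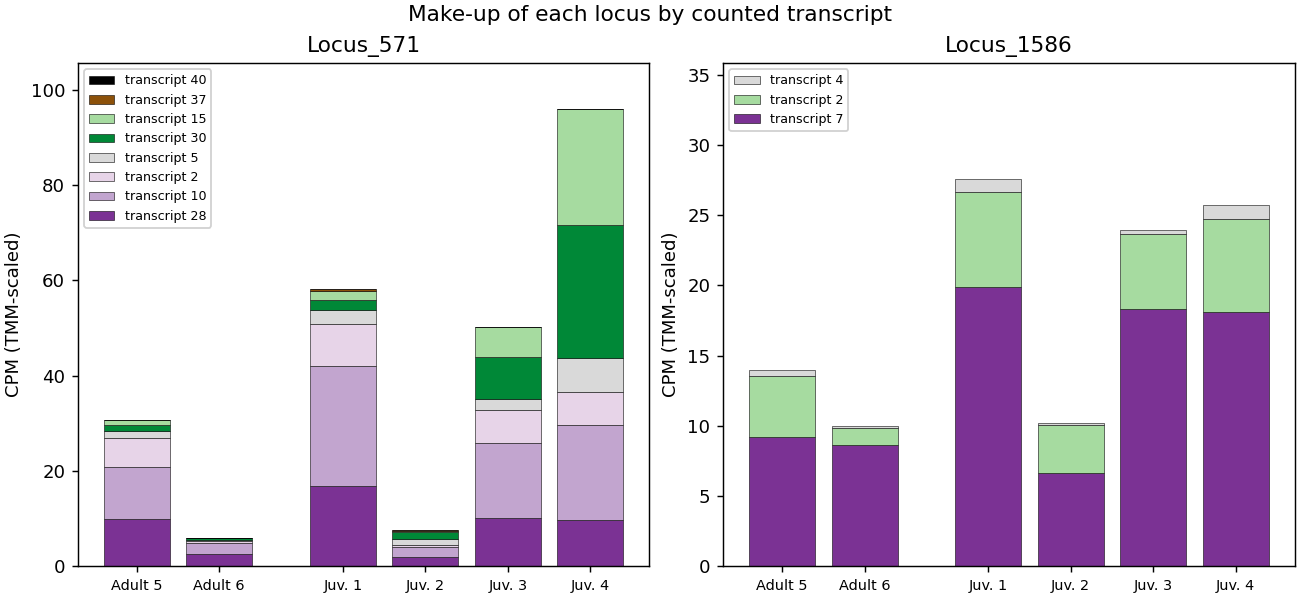
TMM-scaled CPM on the vertical axis, stacked by counted transcript of Locus_571 (left) and Locus_1586 (right), with the 2 adults left of the 4 juveniles and bars starting at 0. In Locus_571 the bar of juvenile 4 is the tallest through transcripts 15 and 30 (green), which are thin bands in adults 5 and 6 and in juvenile 1, while transcript 7 fills most of every bar of Locus_1586.

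The techylectin-5A locus as a whole did not follow its named transcript in every animal. The sum over Locus_571 was 710 and 89 counts in adults 5 and 6, against 2074, 171, 1700 and 3603 counts in juveniles 1 to 4. As CPM it was 30.7 and 5.80 in the adults, against 58.2, 7.54, 50.1 and 96.1 in the juveniles (mean 53.0 ± 36.3, SD, n = 4). Sum and named transcript were both low in juvenile 2 and adult 6. They parted in juvenile 4, which had the highest sum of all 6 animals but less of transcript 28 than juvenile 1 and a level of it that counting error does not separate from that of juvenile 3. Adult 5 stood below juveniles 3 and 4 in the sum, yet its transcript 28 was level with theirs. Within the juveniles the sum spanned 12.7-fold, against a median of 2.06-fold and a ninetieth percentile of 6.07-fold over the 8876 loci tested.

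Transcript 28 held 32.3% and 44.9% of the counts of its locus in adults 5 and 6, against 28.7%, 25.7%, 20.2% and 10.1% in juveniles 1 to 4. Both adults had a larger share than any juvenile. The Wilson 95% intervals of adult 5 (28.9% to 35.8%) and juvenile 1 (26.8% to 30.7%) overlapped, and those of adult 6 (35.0% to 55.3%) and juvenile 4 (9.13% to 11.1%) were far apart. On the log2 scale the ratio of transcript 28 to the rest of the locus averaged -0.68 in adults and -1.99 ± 0.83 in juveniles (SD, n = 4), a difference of 1.31. The two-sided exact permutation test gave p = 0.133, which is the smallest p that 2 against 4 animals allow, so this design cannot reach 0.05. The counterpart was the share on transcripts 15 and 30, a pair chosen after their values had been seen. They took 7.61% and 4.49% of the locus counts in adults 5 and 6, against 6.80%, 22.8%, 30.1% and 54.6% in juveniles 1 to 4. Juvenile 1 was near the adults in this share. In juvenile 2 it came almost wholly from transcript 30, with 20.5% of the locus counts, while transcript 15 had 2.34%, against 3.24% in adult 5 and 3.23% in juvenile 1. Beyond counting error, juvenile 1 and adult 5 were apart in the shares of transcripts 10 and 2. Transcript 10 held 35.4% of the locus counts in adult 5 (Wilson 95% interval 31.9% to 38.9%) and 43.4% in juvenile 1 (41.3% to 45.6%). Transcript 2 held 19.9% in adult 5 (17.1% to 23.0%) and 15.1% in juvenile 1 (13.7% to 16.7%). For transcript 5 the intervals overlapped, with 4.65% in adult 5 (3.33% to 6.46%) and 5.21% in juvenile 1 (4.33% to 6.25%), and so did those for transcript 37.

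**Figure D2:**
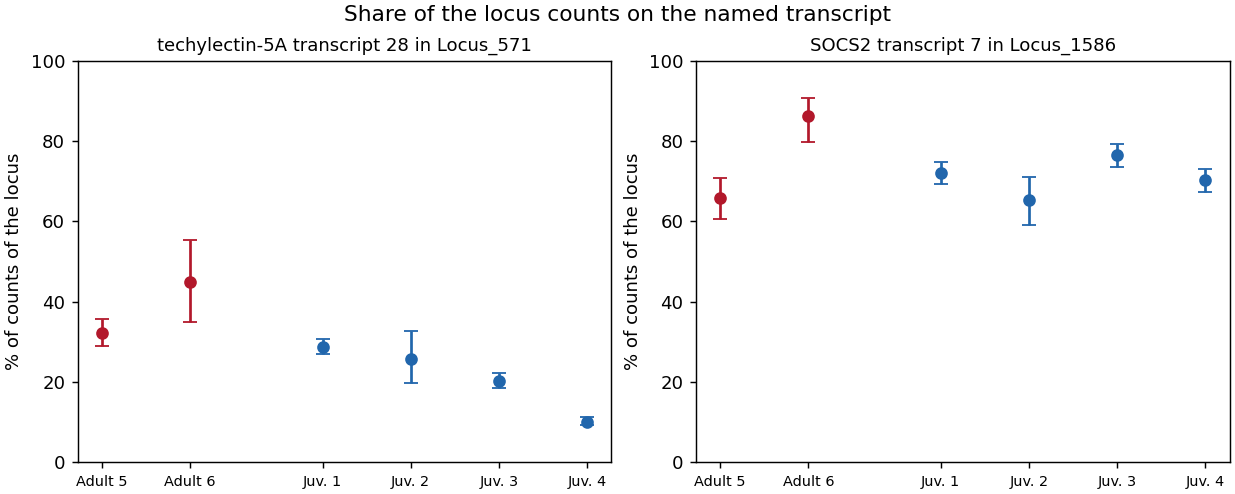
Share of the locus counts on transcript 28 (techylectin-5A, left) and transcript 7 (SOCS2, right), in percent, with the 2 adults left of the 4 juveniles and bars for Wilson 95% intervals, which cover counting error only. For techylectin-5A the shares of adults 5 and 6 (32.3% and 44.9%) lie above those of the juveniles (10.1% to 28.7%), and for SOCS2 adult 5 (65.9%) lies among the juveniles (65.4% to 76.5%) and adult 6 (86.3%) above them.

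Transcript 7 of Locus_1586 had 213 and 132 counts in adults 5 and 6, against 709, 151, 622 and 679 counts in juveniles 1 to 4. This was 9.21 and 8.60 CPM in the adults, against 19.9, 6.66, 18.3 and 18.1 CPM in the juveniles (mean 15.7 ± 6.11, SD, n = 4). Juveniles 1, 3 and 4 lay close together at about 2 times the level of the adults, and juvenile 2 was below both adults. The Poisson 95% intervals of adult 6 (7.19 to 10.2 CPM) and juvenile 2 (5.64 to 7.81 CPM) overlapped. Per kilobase of transcript, SOCS2 averaged 2.79 CPM in adults and 4.94 CPM in juveniles. Transcript 28 of Locus_571 averaged 10.2 CPM in adults and 15.6 CPM in juveniles, and so had more counts per length in both groups. Full lengths were used here although only unique matches were counted, so these values do not rank the abundance of the pair.

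The SOCS2 locus as a sum largely followed its named transcript, but that transcript is most of the sum, so this likeness is partly built in. Its sum was 323 and 153 counts in adults 5 and 6, against 983, 231, 813 and 966 counts in juveniles 1 to 4, or 14.0 and 9.96 CPM in the adults, against 27.6, 10.2, 24.0 and 25.8 CPM in the juveniles (mean 21.9 ± 7.93, SD, n = 4). The order of the juveniles by the sum put juvenile 1 first and juvenile 2 last, as for transcript 7. Transcript 2 (670 nt) had 4.32 and 1.24 CPM in the adults, against 6.76, 3.40, 5.34 and 6.61 CPM in the juveniles. It was thus much lower in adult 6 than in adult 5, while transcript 7 was nearly level in them, at 8.60 and 9.21 CPM. Transcript 4 (1680 nt) stayed between 0.130 and 1.04 CPM in all animals. Transcript 7 held 65.9% and 86.3% of the locus counts in adults 5 and 6, against 72.1%, 65.4%, 76.5% and 70.3% in juveniles 1 to 4. Adult 5 was within the range of the juveniles and adult 6 above it, with a Wilson 95% interval of 79.9% to 90.8%. The log2 ratio of transcript 7 to the rest averaged 1.79 in adults and 1.31 ± 0.33 in juveniles (SD, n = 4), a difference of 0.48 with p = 0.533 in the two-sided exact permutation test. Without adult 6 the difference was -0.36. At the level of the locus, the juveniles spanned 2.71-fold, against 2.06-fold for the median locus.

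**Figure D3:**
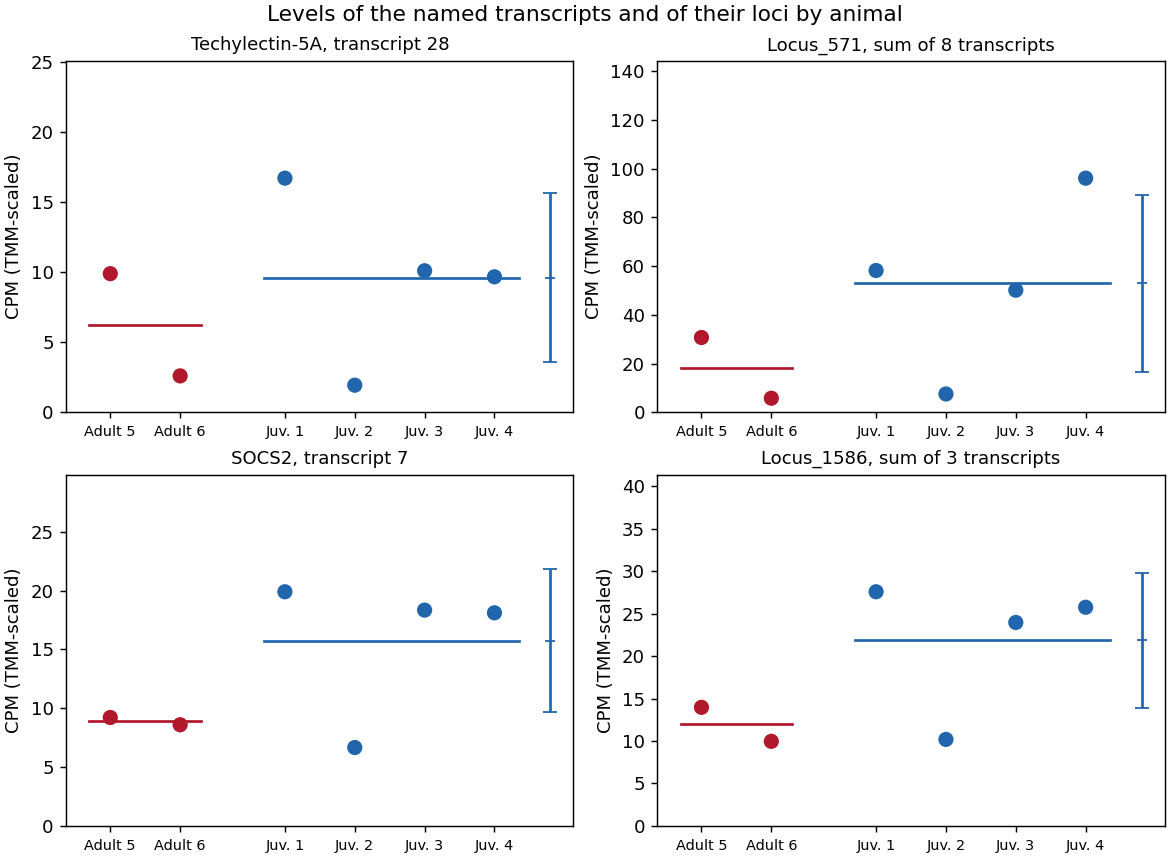
TMM-scaled CPM of transcript 28 of Locus_571, the sum of Locus_571, transcript 7 of Locus_1586 and the sum of Locus_1586, with 1 point per animal, the 2 adults (red) left of the 4 juveniles (blue), a line at each group's mean and a bar for the SD of the juveniles. Juvenile 2 is the lowest juvenile in all panels, at 1.94, 7.54, 6.66 and 10.2 CPM, and lies below or between the adults in each.

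Whether either gene differed between adults and juveniles was tested with edgeR's quasi-likelihood test over all transcripts and again over locus sums, with Benjamini-Hochberg adjustment. Neither gene passed at either level. For SOCS2 transcript 7 the log2 fold change of adults over juveniles was -0.82 (standard error 0.49, adjusted p = 0.588), and for the sum of Locus_1586 it was -0.78 (standard error 0.44, adjusted p = 0.631). Transcript 28 of Locus_571 fell below the minimum of 3 CPM in juvenile 2, which the filter allows, and in adult 6, which it does not. It was therefore tested after edgeR's filterByExpr, a more lenient filter, where its log2 fold change was -0.32 (standard error 0.79, adjusted p = 0.954). The sign was positive without juvenile 1 (0.095) and without adult 6 (0.34), so no direction can be given for it. For the sum of Locus_571 the change on the log2 scale was -1.45 (standard error 0.97, adjusted p = 0.656), and -0.63 without adult 6, -0.96 without juvenile 4 and -3.06 without adult 5. Without juvenile 2 the value of SOCS2 transcript 7 was -1.01 (standard error 0.26, unadjusted p = 0.00705 and adjusted p = 0.254 from edgeR). That omission also brought 1650 transcripts to an unadjusted p under 0.05 in edgeR's quasi-likelihood test, against 828 with all animals. Under filterByExpr with all 6 animals, the value of SOCS2 transcript 7 was -0.51.

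These outcomes stand against a test that called 0% of the 9979 transcripts and 0% of the 8876 loci past the 3 CPM filter, and 0% of 58588 transcripts under filterByExpr. At an unadjusted p under 0.05 the quasi-likelihood test of edgeR had 828 of 9979 transcripts, 705 of 8876 loci and 3937 of 58588 transcripts. The exact test of edgeR called 11, 7 and 116 of them at an adjusted p under 0.05, and DESeq2 called 190, 154 and 218. Of the 11 transcripts of both loci, 1 passed the 3 CPM filter (SOCS2 transcript 7) and 9 passed filterByExpr, of which none was called. Transcripts 37 and 40 of Locus_571 passed neither. The 9 had negative log2 fold changes, with a median of -0.74, against a median of -0.15 over all 58588 transcripts. They share loci and libraries and are not 9 separate results. Transcript 30 of Locus_571 alone among them had an unadjusted p under 0.05 in edgeR's quasi-likelihood fit across all transcripts (log2 fold change -3.29, standard error 1.34, unadjusted p = 0.0403, adjusted p = 0.736). It was also the only one of the 11 with both adults below all 4 juveniles, an order found in 15.2% of the 58588 transcripts. Neither locus sum had it, and 14.5% of the 8876 loci did. The fitted value of transcript 15 was -3.61 on the log2 scale (standard error 1.90, adjusted p = 0.750 from edgeR), which rests on 23 and 0 counts in the adults. For transcripts 2, 5 and 10 of Locus_571 and transcripts 2 and 4 of Locus_1586 the log2 fold changes ran from -1.72 to -0.51, with adjusted p of 0.751 to 0.949.

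**Figure D4:**
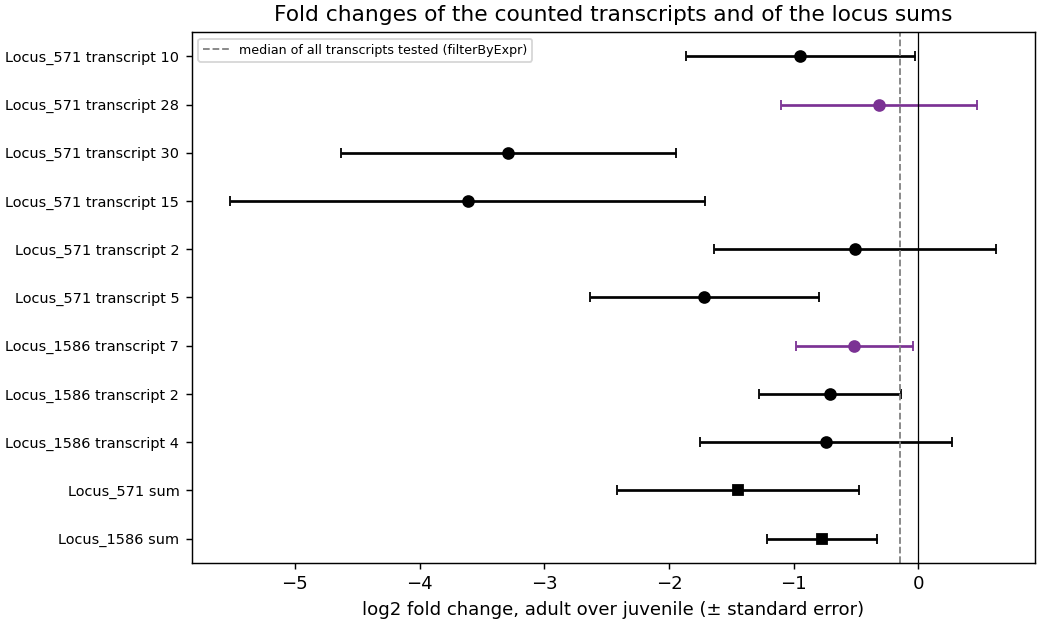
log2 fold change of adults over juveniles with its standard error for the 9 transcripts past filterByExpr (circles, named transcripts in purple, from the fit with that filter) and for both locus sums (squares, from the fit over loci with the 3 CPM filter), beside the median of all transcripts tested at -0.15 (dashed). All 11 points lie below 0, transcripts 15 and 30 of Locus_571 lie farthest from it, and none passed an adjusted p under 0.05.

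The members shared the libraries in which they were low. All 9 transcripts past filterByExpr were lowest among the juveniles in juvenile 2, as were 45.8% of the 58588 transcripts past that filter, and all 9 were lower in adult 6 than in adult 5, as were 53.1%. These libraries also had the fewest transcripts with a count in their groups, 63117 in adult 6, against 70513 in adult 5, and 74230 in juvenile 2, against 87052 to 89887 in the other juveniles. Juvenile 2 had the lowest muscle marker sum (135 CPM) and was the lowest juvenile in 5 of the 6 muscle markers, although the adults, with 2276 and 2022 CPM, were not low in these. That sum is mostly myosin heavy chain, the motor of muscle, at 2071 and 1854 CPM in adults 5 and 6, and at 41.3 CPM in juvenile 2 and 316 to 1923 CPM in the other juveniles. The exception was alpha-actinin-2, a protein that anchors actin filaments, with 76.9 and 57.6 CPM in the adults, and 71.1 CPM in juvenile 2 and 28.3 to 71.6 CPM in the other juveniles. Other lists were not low in these libraries. The cilia marker sum was highest in juvenile 2, at 54.8 CPM, against 19.1 to 38.3 CPM in the other animals. The immune and defence list summed to 1688 CPM in juvenile 2, against 948 to 1156 CPM in the other juveniles. In adult 6 the cilia sum was the lowest (19.1 CPM) and the neural sum the highest (145 CPM). The part of tissue make-up in the levels of either gene was not tested.

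Across the 6 animals, 3 relations were computed on log2 CPM, in which all values share the scaling of their library. Transcript 28 and the rest of Locus_571 had Pearson's r = 0.87 (exact permutation p = 0.0889, adjusted 0.0889) and Spearman's rho = 0.60 (p = 0.242, adjusted 0.242). Leaving out juvenile 2 and adult 6, the animals farthest from the median, r was -0.041, so the relation rests on these animals. Transcript 7 and the rest of Locus_1586 had r = 0.73 (exact permutation p = 0.0750, adjusted 0.0889) and rho = 0.89 (p = 0.0333, adjusted 0.05), and r was 0.76 without juveniles 1 and 2. The named transcripts of both loci moved together over the animals, with r = 0.85 (exact permutation p = 0.00833, adjusted 0.0250) and rho = 0.94 (p = 0.0167, adjusted 0.05). Without juvenile 2 and adult 6 this r was 0.44, so that it too rests largely on the libraries in which both were low.

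The annotated transcripts whose log2 CPM was most like that of transcript 28, among 247 annotated and tested ones over 6 animals, were transcript 10 of Locus_2059 matched to syndecan 1, a cell-surface proteoglycan (r = 0.92), transcript 5 of Locus_5615 matched to the alpha subunit of 2-oxoisovalerate dehydrogenase, an enzyme of branched-chain amino acid breakdown (r = 0.93), and transcript 5 of Locus_6441, whose match is a bacterial genome (r = 0.94). The median r over the 247 was -0.063. Syndecan 1 had 12.4 and 8.73 CPM in adults 5 and 6, against 23.7, 5.74, 12.1 and 12.7 CPM in juveniles 1 to 4. For SOCS2 transcript 7 the nearest were transcript 18 of Locus_41, matched to a yeast chromosome (r = 0.89), transcript 2 of Locus_11378 matched to Rab17, a small GTPase of vesicle transport (r = 0.88), and transcript 2 of Locus_7405, matched to an uncharacterized plant RNA (r = 0.88), with a median of -0.26 over the 247. The Rab17 transcript was lowest in adult 6 (9.31 CPM) and next lowest in juvenile 2 (13.0 CPM), and highest in juvenile 4 (27.7 CPM). These likenesses were picked as the highest of many and are a description.

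Transcripts of related function did not share one direction. Their lists were drawn from the study's table of differentially expressed transcripts, made with captive libraries such as these. Directions in them are therefore not independent evidence. The list of 4 transcripts with a fibrinogen-related domain held transcript 28 itself, and the other 3 passed the 3 CPM filter. None was called, and the median log2 fold change of the 4 under filterByExpr was 0.0094. In that fit transcript 28 stood at -0.32 and the other 3 at -1.05, 0.33 and 1.24. Tenascin C, a matrix glycoprotein (Locus_16859), had 37.7 and 8.73 CPM in adults 5 and 6, against 39.7, 0.441, 27.8 and 23.7 CPM in juveniles 1 to 4, and like transcript 28 it was lowest in juvenile 2 and next lowest in adult 6. Tenascin R (Locus_5998) stood below all juveniles in both adults, with 19.9 and 14.4 CPM, against 61.1, 45.0, 26.3 and 35.7 CPM in juveniles 1 to 4 (log2 fold change -1.29, adjusted p = 0.560 from edgeR). The transcript matched to fibrinogen C domain-containing protein 1, a receptor that binds acetylated sugars in mammals, had 9.69 and 21.6 CPM in the adults, against 7.18, 6.13, 7.64 and 11.7 CPM in the juveniles (log2 fold change 0.93, adjusted p = 0.560). Juvenile 2, far below the other juveniles in tenascin C and transcript 28, was close to juveniles 1 and 3 in this one.

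The list for growth hormone and insulin signalling held SOCS2 and 5 others, of which 4 in all passed the 3 CPM filter and none was called, with a median log2 fold change of -0.31 under filterByExpr. Phosphoenolpyruvate carboxykinase 1, an enzyme of glucose synthesis that insulin represses in mammals, had 2.55 and 3.06 CPM in adults 5 and 6, against 4.41, 7.06, 3.98 and 5.31 CPM in juveniles 1 to 4 (log2 fold change -0.65, adjusted p = 0.826). CREB1, a transcription factor of cyclic AMP signalling, had 1.38 and 2.47 CPM in the adults, against 4.18, 1.85, 2.89 and 4.96 CPM in the juveniles (log2 fold change -0.54, adjusted p = 0.871). The gamma catalytic subunit of protein phosphatase 1 lay the opposite way, with 17.1 and 16.9 CPM in the adults, against 14.4, 8.29, 15.7 and 14.7 CPM in the juveniles (log2 fold change 0.35, adjusted p = 0.743). The HRas-like GTPase and the beta catalytic subunit had log2 fold changes of -0.38 and 0.56, with adjusted p of 0.730 and 0.646.

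Among 10 transcripts of immunity and defence, 7 passed the 3 CPM filter, none was called, and the median log2 fold change under filterByExpr was 0.027, with 6 positive and 4 negative values. The lowest and highest values from the 3 CPM filter belonged to a ferritin, an iron-storage protein (transcript 88 of Locus_2435), and to dual oxidase 2-like, a membrane enzyme and source of hydrogen peroxide. This ferritin had 10.6 and 8.47 CPM in adults 5 and 6, against 19.2 to 41.1 CPM in the juveniles (log2 fold change -1.67, unadjusted p = 0.00427 and adjusted p = 0.560 from edgeR). Another ferritin transcript of the list, from Locus_83545, overlapped between the groups. It had 60.3 and 19.3 CPM in adults 5 and 6, against 41.8 to 85.1 CPM in the juveniles (log2 fold change -0.72, adjusted p = 0.677 from edgeR). Dual oxidase 2-like had 761 and 1151 CPM in the adults, against 219 to 646 CPM in the juveniles (log2 fold change 1.26, adjusted p = 0.560 from edgeR). The matched alpha-2-macroglobulin, a protease trap of body fluids, had 18.3 and 36.7 CPM in adults 5 and 6, against 14.3, 13.5, 13.8 and 21.6 CPM in juveniles 1 to 4 (log2 fold change 0.80, adjusted p = 0.564 from edgeR). Coronin 1A, an actin-binding protein of vertebrate leukocytes, had 8.87 and 7.16 CPM in the adults, against 5.25, 5.96, 5.39 and 7.07 CPM in the juveniles (log2 fold change 0.44, adjusted p = 0.647). BLK, a tyrosine kinase of the Src family, had 8.78 and 3.91 CPM in the adults, against 7.58, 4.94, 7.52 and 11.8 CPM in the juveniles (log2 fold change -0.039, adjusted p = 0.992). Juvenile 2 was the lowest juvenile for BLK, as for the lectin and SOCS2, and not for coronin 1A.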

How the data were processed

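RNA of the body wall of 6 captive animals was analysed (2 adults and 4 juveniles, 1 column and 1 replicate per animal, grouped by the stage on the labels). The authors aligned stranded read pairs to their assembly of wild animals' RNA with HISAT2, for which no version is given in the sources used here, kept unique matches and deposited raw counts per assembled transcript. A read shared by transcripts of one locus is therefore lost or assigned by its unique stretch, and levels of single transcripts within a locus are uncertain. The submitters' notes also name edgeR 3.20.9. Names come from the annotated sheets of the study's supplementary table of differentially expressed transcripts with a nucleotide database match, whose values were not used. The annotated transcripts and the lists are thus limited to that set.

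Counts were used as deposited in R 4.3.3 with edgeR 4.0.16 and DESeq2 1.42.0. Transcripts, and counts summed per locus, were tested if they reached 3 CPM in both adults and in 3 or more juveniles. This filter used CPM on library totals without the TMM factor, unlike the levels printed here. BLK, with 3.91 TMM-scaled CPM in adult 6, therefore missed it. Adults and juveniles were compared with edgeR's quasi-likelihood test and TMM, adjusted by Benjamini-Hochberg over all features tested. Transcript 28 of Locus_571 missed this filter, and its test, with those of the other members, uses filterByExpr with TMM factors of its own, a choice made after the counts had been seen. Adjusted p-values of transcripts named from a list are from the 3 CPM fit, or from filterByExpr where that filter was missed. Ratios within a locus use 0.5 added counts and exact permutation tests in scipy 1.17.1. Log2 CPM use a prior count of 2. Counts were also simulated with 200 transcripts raised in adults among the 9979 past the 3 CPM filter. The quasi-likelihood test recovered 0 of 50 at 2-fold, 8 at 4-fold, 33 at 8-fold and 47 at 16-fold. Decreases in adults, and transcripts below that filter such as transcript 28, were not simulated.

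The members, lists and tests were chosen with earlier results of these data known. The text names both named transcripts, the members with a mean of 3 CPM or the 5 most abundant of a locus, members of the lists and the 3 annotated transcripts most like each named one. Transcripts 37 and 40 of Locus_571 and the pair of transcripts 15 and 30 were described after their values had been seen. Alternatives were 3 other scalings, DESeq2, the exact test, 2 other filters, leaving out mitochondrial and rRNA loci, other ratios and leaving out each animal. No sequence is printed.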

Additional observations from a re-analysis of the deposited data

Results flagged for a closer look

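In 15 groups of 4 juvenile values, 2 had a value whose gap to its nearest neighbour, as a share of the range, was above Dixon's 95% critical value for 4 samples. Chance alone gives about 1 group in 20, and the groups overlap, since locus sums contain their transcripts. SOCS2 transcript 7 of Locus_1586 had a ratio of 0.865, with juvenile 2 at 6.66 CPM and the other juveniles at 18.1 to 19.9 CPM. Transcript 40 of Locus_571 had a ratio of 1.0, which follows from its 2 counts being in 1 animal, juvenile 4, and cannot be set against that rate.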

How the results depend on the processing

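Of 73 alternative fold changes and ratios, 70 kept their direction without a call and 3 changed sign. The log2 fold change of techylectin-5A transcript 28 was 0.095 without juvenile 1 and 0.34 without adult 6, and ran from -1.54 to 0.34 over the animals left out. The log2 ratio difference of SOCS2 transcript 7 over the rest of its locus was -0.36 without adult 6, and ran from -0.36 to 1.32. Leaving out each animal gave -1.01 to -0.63 for SOCS2 transcript 7, -1.02 to -0.51 for its locus, -3.06 to -0.63 for the techylectin-5A locus and 0.92 to 1.70 for the techylectin-5A ratio difference. With DESeq2, the exact test of edgeR and no filter, 190, 11 and 7 transcripts and 154, 7 and 12 loci were called, against 0 and 0, and the cause was not tested. On library totals alone the median log2 fold change of all transcripts was -0.67, against -0.11, with SOCS2 transcript 7 at -1.40, its locus at -1.40, the techylectin-5A locus at -1.95 and transcript 28 at -1.01. Adults and juveniles were different animals and share no replicate numbers, so no paired analysis was possible. With 2 adults, and 0 to 40 counts in adult 6 for every member but SOCS2 transcript 7, small differences were not detectable in these data. Among simulated transcripts past the 3 CPM filter, the quasi-likelihood test also missed most 4-fold rises, recovering 8 of 50.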
